A study of Mus musculus with 92 samples.

Results

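The long intergenic noncoding RNAs (lincRNAs) described here are gene rows that the deposited annotation types as lincRNA, meaning transcribed from between protein-coding genes with no protein product annotated; RefSeq types some of them otherwise, and some overlap exons of other genes, as given below. They were chosen by annotation and level: rows with the biotype lincRNA, not on chromosome X or Y, whose mean over the 4 wild-type organoid libraries was at least 2 CPM, counts scaled to the library total. The rule found 116 lincRNAs among 4915 lincRNA rows outside X and Y and 54532 gene rows in all. The levels in those 4 libraries chose the set, so they are given as a description and no test uses those libraries as an arm.

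The study concerns Eif4g2, which encodes a non-canonical translation initiation factor, in the mouse intestinal epithelium, and its title names the translation of histone modifiers. RNA-seq counts came from 92 libraries in 21 groups. In the tissue groups and most cultures, floxed Eif4g2 alleles were deleted by CreER, a recombinase that acts once tamoxifen or its metabolite 4-hydroxytamoxifen (4-OHT) is given. Mice with Rosa26(CreER), expressed broadly, were sampled on day 9. Heterozygous mice (flox/+) gave 5 crypt and 5 villus libraries, and homozygous mice (flox/flox) gave 4 crypt and 5 villus libraries. Mice with Vil1(CreER), driven in the intestinal epithelium, received 4 injections of tamoxifen at 100 mg/kg and were sampled at 3 months, with 4 heterozygous and 3 homozygous crypt libraries and 4 heterozygous and 6 homozygous villus libraries. Controls in tissue were therefore heterozygous deletions that carried CreER and tamoxifen too. A first set of flox/flox Rosa26(CreER) small intestinal organoids had 3 libraries with DMSO and 3 with 0.5 µM 4-OHT for 24 h, collected on day 6. Its controls received no 4-OHT, so effects of 4-OHT or active CreER cannot be told apart from those of the deletion in that set. A second organoid set, all treated with 4-OHT and collected on day 6, had 4 libraries each of wild-type Eif4g2 with Rosa26(CreER), flox/+ and flox/flox. Fetal intestinal spheroids with Rosa26(CreER), also collected on day 6, had 6 flox/flox libraries with DMSO and 6 with 4-OHT, and 5 and 5 of flox/+. In the A-485 series 4 organoid lines with Rosa26(CreER) each received DMSO or 3, 5 or 10 µM A-485 for 4 days. The series' design text calls them wild-type, while the genotype labels give line 1 as Eif4g2(+/+) and lines 2 to 4 as flox/flox, with no 4-OHT named. Line 2 carries the same name as line 1 of the first organoid set. All cultures grew in ENR medium, which holds EGF, Noggin and R-spondin.

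LincRNAs act in several ways. Some build nuclear bodies, as Neat1 does for paraspeckles, some carry small nucleolar RNAs (snoRNAs) or microRNAs in their introns or exons, and many are transcribed from a promoter shared with a coding gene on the other strand, or near enhancers, where the acetyltransferases p300 and CBP are active. A-485 inhibits the catalytic activity of p300 and CBP. In the intestine, crypts hold stem, Paneth and dividing cells and villi hold differentiated enterocytes, so a lincRNA made in one cell type follows the share of that cell type in a bulk library.

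Library totals ran from 8652040 to 37611126 counts. Eif4g2 itself was lower in every comparison of a deleted with a control group: in Rosa26-CreER crypts from 337.2 to 357.1 CPM in heterozygous and from 67.9 to 98.3 CPM in homozygous libraries, in Vil1-CreER crypts from 437.4 to 488.0 and from 230.7 to 239.8 CPM, in the first organoid set from 704.9 to 793.6 and from 144.0 to 147.7 CPM, and in the second from 790.3 to 833.8 CPM in flox/+ and from 220.1 to 269.8 CPM in flox/flox. Reads of the Y-linked gene Ddx3y were present in 5 of 5 heterozygous and 1 of 4 homozygous Rosa26-CreER crypt libraries, and in 5 of 5 and 2 of 5 villus libraries, so Y-linked reads and genotype went largely together in both tissues. The summed CPM of 6 crypt markers fell with Eif4g2 loss and with A-485: from 18067 to 23758 in heterozygous and from 1502 to 8604 in homozygous Rosa26-CreER crypts, and from 7190 to 9145 with DMSO and from 115.9 to 140.5 at 10 µM A-485 in organoids. Summed immune markers were between 0 and 6.88 CPM in organoids of the first and second set and between 0 and 1.53 CPM in the A-485 organoids. In a bulk library, fewer cells of a type and less RNA per cell cannot be told apart. Changes are given below on the log2 scale, each with a standard error (SE); adjusted p is that of edgeR's quasi-likelihood test with Benjamini-Hochberg adjustment over all tested genes, and a lincRNA was called at an adjusted p under 0.05. Per-library levels are CPM after TMM scaling within a set, so they are not comparable between sets.

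The sequences shown first are those of 4 promoters whose lincRNAs recur in the results: AI427809 and 4933406C10Rik, Snhg18 and Gm17586. Of the 116 lincRNAs, 86 matched a RefSeq gene by symbol (80) or synonym (6), and 50 had a promoter in the RefSeq table (GRCm38.p6), a window from 250 bases before to 50 bases after the start. Capitals mark letters matching a searched motif on either strand. AI427809 lies on the minus strand (promoter chr4:53270183-53270482) and has 1 CCAAT box; 4933406C10Rik (minus strand, chr12:32953740-32954039) has a GC box, a match to the CRE core and an AP-1 match; Snhg18 (minus strand, chr15:32244613-32244912) has GC boxes and a CRE core; Gm17586 (plus strand, chr11:120633500-120633799) has a CRE core.
AI427809: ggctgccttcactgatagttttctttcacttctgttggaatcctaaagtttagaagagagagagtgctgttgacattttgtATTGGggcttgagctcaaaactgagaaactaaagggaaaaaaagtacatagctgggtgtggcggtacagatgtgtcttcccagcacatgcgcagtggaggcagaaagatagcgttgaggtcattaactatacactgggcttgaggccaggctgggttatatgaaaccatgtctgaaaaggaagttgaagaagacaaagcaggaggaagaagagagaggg
4933406C10Rik: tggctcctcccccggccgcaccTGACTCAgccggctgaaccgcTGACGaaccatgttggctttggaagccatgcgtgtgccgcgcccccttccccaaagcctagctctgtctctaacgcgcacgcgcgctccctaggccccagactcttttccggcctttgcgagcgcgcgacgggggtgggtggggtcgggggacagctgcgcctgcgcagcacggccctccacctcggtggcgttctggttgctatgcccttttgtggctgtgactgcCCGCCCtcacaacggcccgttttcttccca
Snhg18: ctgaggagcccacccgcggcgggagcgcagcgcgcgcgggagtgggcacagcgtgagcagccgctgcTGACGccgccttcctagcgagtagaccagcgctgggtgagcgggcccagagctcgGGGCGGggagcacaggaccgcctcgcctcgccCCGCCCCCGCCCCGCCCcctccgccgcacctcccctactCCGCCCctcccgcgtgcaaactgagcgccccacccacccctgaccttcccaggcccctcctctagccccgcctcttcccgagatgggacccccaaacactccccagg
Gm17586: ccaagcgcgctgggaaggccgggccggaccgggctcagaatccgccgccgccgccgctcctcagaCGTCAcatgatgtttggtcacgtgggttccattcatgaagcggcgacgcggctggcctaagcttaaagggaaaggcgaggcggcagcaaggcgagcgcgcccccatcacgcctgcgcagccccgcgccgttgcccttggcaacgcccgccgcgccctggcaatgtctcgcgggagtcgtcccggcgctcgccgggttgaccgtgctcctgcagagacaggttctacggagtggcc

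The motifs searched, each on both strands, were TATAAA (the core promoter box), CCAAT (bound by NF-Y), GGGCGG (GC box), CCGGAAG (ETS), TGACG (CRE core), ATCAAAG (TCF/LEF) and TGANTCA (AP-1). A GC box was in 52% of the 50 lincRNA promoters and 35.7% of all 32851 promoters, the ETS motif in 22% and 8.86%, and the CRE core in 36% and 20.8%. CCAAT was in 38% and 37.4%, TATAAA in 10% and 13.6%, TCF/LEF in 2% and 3.73%, and AP-1 in 10% and 7.81%. CpG observed over expected was above 0.6 in 25 of 50 lincRNA promoters and in 35.8% of all promoters. The lincRNAs were chosen by a level of 2 CPM or more, while the 32851 promoters were not chosen by level. Shares for promoters of genes at a like level were not computed, so the differences cannot be assigned to lincRNAs. These matches are descriptions of the letters in the windows.

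Mature microRNAs of 2 host lincRNAs are shown because their hosts differed between crypt and villus. Mir17hg (chr14:115042879-115046727, plus strand) hosts the miR-17 to miR-92 cluster, and AL805899.1 (chr4:88909855-88938521, minus strand) holds Mir31. Capitals mark the seed, bases 2 to 8. The seed AAAGUGC is shared by miR-17-5p and miR-20a-5p, and GUGCAAA by miR-19a-3p and miR-19b-3p. The microRNAs themselves were not measured.
mmu-miR-17-5p: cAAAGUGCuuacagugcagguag
mmu-miR-20a-5p: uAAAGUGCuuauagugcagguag
mmu-miR-18a-5p: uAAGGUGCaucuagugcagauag
mmu-miR-19a-3p: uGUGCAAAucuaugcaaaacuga
mmu-miR-19b-3p: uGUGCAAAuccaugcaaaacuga
mmu-miR-92a-3p: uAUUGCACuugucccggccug
mmu-miR-31-5p: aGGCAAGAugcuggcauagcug

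In the wild-type organoids that chose them, the 116 lincRNAs had a median of 4.21 CPM. By the library-total CPM of the rule, 54 lay from 2 to below 4 CPM, 36 from 4 to below 10, 20 from 10 to below 50, and 6 at 50 CPM or more. Those 6 were Malat1 at 283 CPM, 2900097C17Rik at 241, Gm42047 at 239.6, Gm26917 at 166.9, 1700020I14Rik at 122.9 and Neat1 at 86.1. Just inside the threshold lay Gm16907 (2.09 CPM), Gm3054 (2.06) and Gdap10 (2.03), and just outside it Gm43672 (1.98), Gm40614 (1.97) and BC049987 (1.97). Per kb of gene length the order changed: Gm26917, whose sequence resembles ribosomal RNA, had 50.1 CPM per kb, 2900097C17Rik 49.0, Gm42047 42.4, Epb41l4aos 41.8, and Malat1 and Gm10076 40.5 each. With a threshold of 1 CPM the set held 186 lincRNAs and with 4 CPM it held 62.

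The lincRNAs lay on 19 chromosomes, with a median gene length of 2473 bases against 3422 for protein-coding rows. Their start sites lay a median of 23468.5 bases from that of the nearest protein-coding gene, and 15 were divergent, meaning on opposite strands with start sites within 2 kb and pointing away from each other. Exons of 22 overlapped exons of another gene on the opposite strand and those of 6 on the same strand. The libraries kept strand, but use of strand in counting is not given in the sources used here, so counts of overlapping genes are uncertain. Inside 7 lay a snoRNA and inside 4 a microRNA gene. RefSeq typed 74 of the 86 matched genes as lncRNA, 9 as protein-coding, 2 as pseudogene and 1 as transcribed pseudogene.

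Outside the organoids that chose the set, levels varied with the source. Of the 116, 109 had at least 2 CPM in flox/+ organoids of the second set, 90 in DMSO-treated organoids of the A-485 series, 72 in flox/+ spheroids with 4-OHT, 59 in heterozygous Rosa26-CreER crypts and 55 in heterozygous Rosa26-CreER villi. Of the 90 with DMSO, 51 were also at 2 CPM or more at 10 µM A-485. C130083M11Rik and C920006O11Rik were at 2 CPM or more at 10 µM but not with DMSO, and 8 lincRNAs had no read at 10 µM. The median level was 3.63 CPM with DMSO and 1.85 CPM at 10 µM A-485.

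Eif4g2 loss changed lincRNAs in both directions. In Rosa26-CreER crypts 8 rose and 16 fell of 112 tested (21.4%), where 20.2% of all genes were called, 8.63% as higher and 11.6% as lower. In Rosa26-CreER villi 11 rose and 9 fell of 87 (23%; 33.2% of all genes, 15% higher and 18.2% lower). In Vil1-CreER crypts 12 rose and 30 fell of 116 (36.2%; 29.3% of all genes, 11.6% higher and 17.7% lower), the falls being 25.9% of the lincRNAs tested. In Vil1-CreER villi the split was the other way, with 30 higher and 10 lower of 109 (36.7%; 42.5% of all genes, 20.9% higher and 21.6% lower). The median log2 fold change in Vil1-CreER villi was 0.24 over the lincRNAs and 0.05 over all genes tested, and in Vil1-CreER crypts -0.10 and 0.01. Without homozygous library 1, 25 lincRNAs were called in Vil1-CreER crypts. With a term for Ddx3y reads, a fit chosen after seeing the data, 14 were called in Rosa26-CreER crypts (1 higher, 13 lower) and 14 in Rosa26-CreER villi (9 higher, 5 lower).

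With 4-OHT in the first organoid set 16 rose and 25 fell of 116 (35.3%; 35.4% of all genes, 18.2% higher and 17.2% lower). In the second, flox/flox against flox/+, 12 rose and 32 fell (37.9%; 46.8% of all genes, 22.6% higher and 24.3% lower). Medians were -0.06 and -0.09 over the lincRNAs, against 0.03 and -0.01 over all genes. The set was chosen by its level in organoids with wild-type Eif4g2, so lincRNAs that are low there and rise with a treatment are not in it, and the split between higher and lower is a description in all organoid comparisons. Of the 11440 genes outside X and Y at 2 CPM or more in the same wild-type libraries, 20% were higher and 18.7% lower in the first set, and 25.5% and 25.3% in the second. The count in the first set was 25 without DMSO library 1, 26 without 4-OHT library 1 and 27 without DMSO library 2.

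In flox/flox fetal spheroids 4-OHT gave 2 higher and 7 lower of 113 (7.96%; 19.1% of all genes, 9.01% higher and 10% lower) and 18 without DMSO library 6. With the line as a replicate block, 23 of 101 were called (22.8%; 12 higher, 11 lower), where 34.6% of all genes were called, 17.6% higher and 17.1% lower. In flox/+ spheroids 4-OHT gave 0 of 113 (0% of all genes) by edgeR's quasi-likelihood test, 0 lincRNAs and 15 genes at an unadjusted p under 0.05, and 0 lincRNAs by the DESeq2 Wald test. With the line as a replicate block, 0 of 108 were called, where 1 of 13933 genes was (0.00718%), and 3 lincRNAs and 1003 genes had an unadjusted p under 0.05. Between genotypes with 4-OHT, 3 were higher and 6 lower in flox/flox of 113 (7.96%; 10.5% of all genes, 4.36% higher and 6.13% lower). That count fell to 2 without flox/+ 4-OHT library 5, to 3 without flox/+ library 3 or 4, to 4 without flox/flox library 1 or 5, and to 5 without flox/flox library 2.

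**Figure D1:**
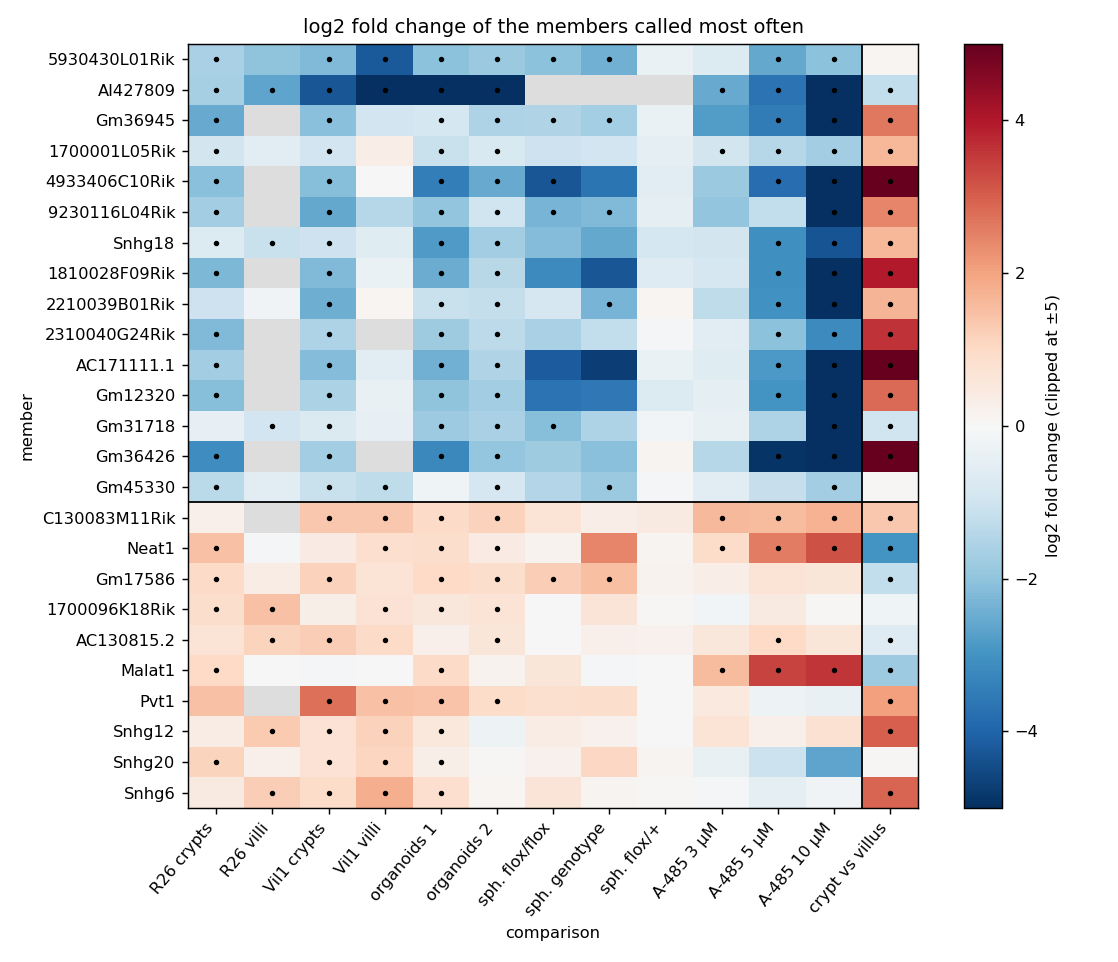
Log2 fold change of the lincRNAs called in the same direction most often (lower above the line, higher below it), one row per lincRNA and one column per comparison, with crypts against villi of heterozygous Rosa26-CreER mice at the right. Colour is clipped at ±5, a dot marks an edgeR adjusted p under 0.05 and grey marks a lincRNA that was not tested. AI427809 was lower in 9 comparisons and Neat1 higher in 7, some of which share libraries.

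The nuclear-body RNAs Neat1 and Malat1 were among those that rose. Neat1 (chr19:5824708-5845478, minus strand) is the scaffold of paraspeckles, and Malat1 (chr19:5795690-5802672, minus strand) sits in nuclear speckles. With DMSO in the first organoid set Neat1 was at 381, 416 and 524 CPM, and with 4-OHT at 731, 840 and 852 CPM. No library of one group reached the other, and the log2 fold change was 0.88 (SE 0.14, adjusted p 0.00307). In the second set the flox/+ libraries had 115, 115, 139 and 143 CPM and the flox/flox libraries 166, 170, 152 and 194 CPM, again with no overlap, at a log2 fold change of 0.41 (SE 0.10, adjusted p 0.00487). In Rosa26-CreER crypts Neat1 was at 27.9, 18.7, 28.5, 31.5 and 39.7 CPM in heterozygous and 63.9, 113, 54.5 and 75.2 CPM in homozygous libraries, and rose by 1.45 (SE 0.26, adjusted p 0.00528). With a term for Ddx3y reads the same change was 1.21 with an adjusted p of 0.0729.

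Neat1 was far higher in villi than in crypts. In heterozygous Rosa26-CreER villi it was at 207, 118, 429, 214 and 176 CPM, every library above every crypt library, and the log2 fold change of crypts against villi was -2.98 (SE 0.34, adjusted p 7.05e-06). Heterozygous Vil1-CreER villi had 1211, 2153, 2663 and 1428 CPM, and homozygous ones a lowest of 2358, a median of 3470 and a highest of 4055 CPM. That rise was 0.84 (SE 0.24, adjusted p 0.012), with an overlap between the groups. In Vil1-CreER crypts the levels were 301, 207, 208 and 277 CPM and 312, 355 and 328 CPM, and the log2 fold change of 0.42 did not pass the test. Between homozygous and heterozygous Rosa26-CreER villi Neat1 did not rise (-0.045, adjusted p 0.937). It was not called in flox/flox spheroids with 4-OHT (0.179, adjusted p 0.932) or between spheroid genotypes (2.46, adjusted p 0.182).

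Malat1 rose in the first organoid set from 128, 111 and 102 CPM to 225, 234 and 204 CPM, with no overlap and a log2 fold change of 0.96 (SE 0.10, adjusted p 0.00094). In the second set its log2 fold change was 0.17 (adjusted p 0.441), in Vil1-CreER villi -0.01 (adjusted p 0.978) and in Rosa26-CreER villi -0.035 (adjusted p 0.954). In Rosa26-CreER crypts the heterozygous libraries had 60.1, 39.2, 24.0, 42.4 and 31.5 CPM and the homozygous ones 73.1, 95.8, 81.0 and 49.1 CPM. The groups overlapped. The change of 0.99 (SE 0.28, adjusted p 0.0356) lost its call without any one of homozygous libraries 1, 3 and 4 or heterozygous libraries 2 to 5, with adjusted p up to 0.0873. The share of mitochondrial counts also differed there, from 6.24% to 12.4% in heterozygous and 13.7% to 25.2% in homozygous libraries, and its part in the result was not tested.

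2900097C17Rik (chr2:156388065-156392979, minus strand), the mouse counterpart of NORAD, which binds Pumilio proteins in the cytoplasm, moved little. In the first organoid set it was at 177, 174 and 173 CPM with DMSO and 225, 200 and 239 CPM with 4-OHT, a log2 fold change of 0.34 (SE 0.09, adjusted p 0.0198). The call was lost without any one of the DMSO libraries or 4-OHT library 1, with adjusted p up to 0.0721. The list of 10 nuclear-body and chromatin lncRNAs, of which 6 are in the set, also holds the cytoplasmic 2900097C17Rik. In the first organoid set 4 of 7 tested rose, 2900097C17Rik among them, and 1 fell. The median log2 fold change was 0.34, the value of 2900097C17Rik itself, against 0.03 over all genes. In the second set 3 of 8 rose and 2 fell, and in Vil1-CreER crypts 1 of 9 rose and 2 fell. Of all genes, 18.2% were higher in the first set, 22.6% in the second and 11.6% in Vil1-CreER crypts. The mRNAs of paraspeckle proteins did not follow Neat1. Of 9 listed, 0 rose and 2 fell in the first set, 0 rose and 8 fell in the second, and in crypts against villi 9 of 9 were higher where Neat1 was lower. Of all genes, 17.2% were lower in the first set and 24.3% in the second, and 40.6% were higher in crypts than in villi.

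SnoRNA host lincRNAs carry snoRNAs, which guide ribosomal RNA modification, in their introns, and 5 of the 22 listed hosts are in the set: Snhg6, Snhg12, Snhg18, Snhg20 and Epb41l4aos. Snhg6 was at 1.63, 2.45, 2.36 and 2.11 CPM in heterozygous Vil1-CreER villi, and in homozygous ones its lowest, median and highest were 4.63, 7.46 and 11.9 CPM. There was no overlap, at a log2 fold change of 1.81 (SE 0.29, adjusted p 0.000272). It also rose in Vil1-CreER crypts (log2 fold change 0.91, adjusted p 0.00338) and, by 0.82, in the first organoid set (adjusted p 0.00208). Heterozygous Rosa26-CreER villi had 1.46, 1.02, 1.91, 0.376 and 1.23 CPM and the homozygous ones 3.18, 4.05, 3.51, 1.76 and 2.17 CPM. That rise of 1.23 (SE 0.39, adjusted p 0.03) lost its call without homozygous library 1, 2 or 3 or heterozygous library 2 or 5, with adjusted p up to 0.0673.

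Snhg12, host of 5 annotated snoRNAs, rose in Vil1-CreER villi from 3.26, 3.70, 5.54 and 2.38 CPM to levels between 4.33 and 12.8 CPM, with an overlap between groups (log2 fold change 1.16, SE 0.30, adjusted p 0.00792). Snhg6 was at 6.11, 8.82, 11.2, 9.80 and 9.91 CPM in heterozygous Rosa26-CreER crypts, above all villus libraries, a log2 fold change of 2.92 (SE 0.34, adjusted p 6.32e-06). Snhg12 was higher in crypts too, at 2.99, 3.64, 6.61, 5.15 and 5.73 CPM against 0.231, 0.578, 0.863, 0.752 and 0.612 CPM in villi (log2 fold change 3.00, adjusted p 7.58e-06). Over the whole list of hosts, 15 of 20 tested rose and 1 fell in Vil1-CreER crypts (median 0.73 against 0.01 over all genes), 13 of 18 rose and 0 fell in Vil1-CreER villi (1.14 against 0.05), and 10 of 20 rose and 1 fell in the first organoid set (0.49 against 0.03). In the second set 5 of 18 rose and 1 fell, in Rosa26-CreER crypts 1 rose and 1 fell of 18, and in Rosa26-CreER villi 5 of 16 rose and 1 fell. Of all genes, 11.6% were higher in Vil1-CreER crypts, 20.9% in Vil1-CreER villi and 18.2% in the first organoid set. The same share was 22.6% in the second set, 8.63% in Rosa26-CreER crypts and 15% in Rosa26-CreER villi. Of the 8 core proteins of snoRNA particles, 8 rose in Vil1-CreER crypts, 6 in Vil1-CreER villi, 4 in Rosa26-CreER villi, 1 in the first organoid set and 0 in Rosa26-CreER crypts, with 0 lower in each. In the second organoid set 0 rose and 4 fell (Fbl, Nop58, Nhp2 and Gar1), and 8 of 8 were higher in crypts than in villi. Of all genes 24.3% were lower in that set, and 40.6% were higher in crypts than in villi.

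Snhg18, which holds Snord123 (chr15:32240565-32244662, minus strand), was the one host of these 5 that fell in the genotype comparisons. In the first organoid set it went from 3.94, 3.88 and 4.12 CPM to 0.546, 0.775 and 0.341 CPM, with no overlap and a log2 fold change of -2.84 (SE 0.30, adjusted p 0.000871). It also fell in Rosa26-CreER crypts (-0.69, adjusted p 0.0141), Rosa26-CreER villi (-1.10, adjusted p 0.0137), Vil1-CreER crypts (-1.04, adjusted p 0.0073) and the second set (-1.75, adjusted p 6.22e-05). Its start lies 148 bases from that of Sema5a, a semaphorin, on the other strand. Sema5a fell by 2.74 with 4-OHT in that set (adjusted p 0.0013), by 1.00 in Rosa26-CreER crypts (adjusted p 0.0345) and by 0.93 in Vil1-CreER crypts (adjusted p 0.0208).

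Of the microRNA hosts, Mir17hg rose in Vil1-CreER villi from 1.41, 2.41, 3.86 and 1.45 CPM to a lowest of 4.63, a median of 9.95 and a highest of 22.6 CPM. Levels did not overlap, at a log2 fold change of 2.29 (SE 0.45, adjusted p 0.00144). It was higher in crypts than in villi by 2.08 (adjusted p 0.00178). AL805899.1, which holds Mir31, was the reverse: 0.873, 0.981, 0.829, 0.868 and 1.28 CPM in heterozygous Rosa26-CreER crypts and 3.27, 3.33, 7.4, 3.92 and 3.79 CPM in villi, a log2 fold change of -2.17 (adjusted p 1.99e-05). Of 16 listed microRNA hosts, 3 of 7 tested rose in Vil1-CreER villi and Mirt2 fell (all genes 20.9% higher and 21.6% lower). In the first organoid set 0 of 6 were called (35.4% of all genes). The list left out AL805899.1 and held Mirt1 and Mirt2, which are not microRNA hosts.

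Lower in the most comparisons, together with 5930430L01Rik, was AI427809 (chr4:53261356-53270232, minus strand), named Mexis in RefSeq, a transcript induced by the sterol-sensing LXR receptors in macrophages and linked there to Abca1, the cholesterol exporter. It fell in 9 of the 12 genotype and inhibitor comparisons and was not tested in the other 3, all in spheroids, where its highest level in any library was 0.369 CPM. Organoids of the first set had 2.72, 3.10 and 3.15 CPM of it with DMSO and 0, 0.034 and 0.031 CPM with 4-OHT. In the second set flox/+ libraries had 6.93, 5.00, 10.3 and 12.1 CPM and flox/flox libraries 0.267, 0.066, 0.297 and 0.239 CPM. Groups did not overlap in either set, with log2 fold changes of -6.88 (SE 0.46, adjusted p 0.000235) and -5.25 (SE 0.38, adjusted p 6.97e-08). The wild-type libraries of the second set had 5.48, 5.20, 4.35 and 3.74 CPM. The 12 comparisons are not independent, since the 3 A-485 doses share DMSO libraries and the spheroid comparisons share libraries. How many of all genes were lower in as many comparisons is not given here.

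In tissue AI427809 was at 15.9, 13.3, 10.1, 10.9 and 11.6 CPM in heterozygous Rosa26-CreER crypts and 3.19, 2.82, 5.34 and 3.81 CPM in homozygous ones (log2 fold change -1.65, SE 0.22, adjusted p 0.00137). In Rosa26-CreER villi the heterozygous libraries had 32.8, 27.6, 20.7, 32.9 and 31.8 CPM and the homozygous ones 3.87, 2.41, 1.64, 10.6 and 5.35 CPM (-2.66, SE 0.43, adjusted p 0.00146). The groups did not overlap in either tissue. In Vil1-CreER crypts, 20.8, 17.2, 14.7 and 21.4 CPM stood against 0.460, 0.858 and 1.49 CPM (-4.30, SE 0.37, adjusted p 0.00028). In Vil1-CreER villi, 93.0, 57.0, 38.3 and 68.5 CPM stood against a lowest of 0.612, a median of 1.31 and a highest of 2.27 CPM (-5.49, SE 0.35, adjusted p 3.24e-07). Unlike AC171111.1 below, AI427809 was higher in villi than in crypts of heterozygous mice.

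Abca1, on the same strand 110337 bases from AI427809, did not always move with it. It fell in Vil1-CreER villi (-2.66, adjusted p 0.000132), in the first organoid set (-0.83, adjusted p 0.047) and in the second (-3.59, adjusted p 1.64e-06). In Rosa26-CreER crypts it rose by 1.93 (adjusted p 0.0419), and in Vil1-CreER crypts its log2 fold change of -0.33 did not pass the test.

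**Figure D2:**
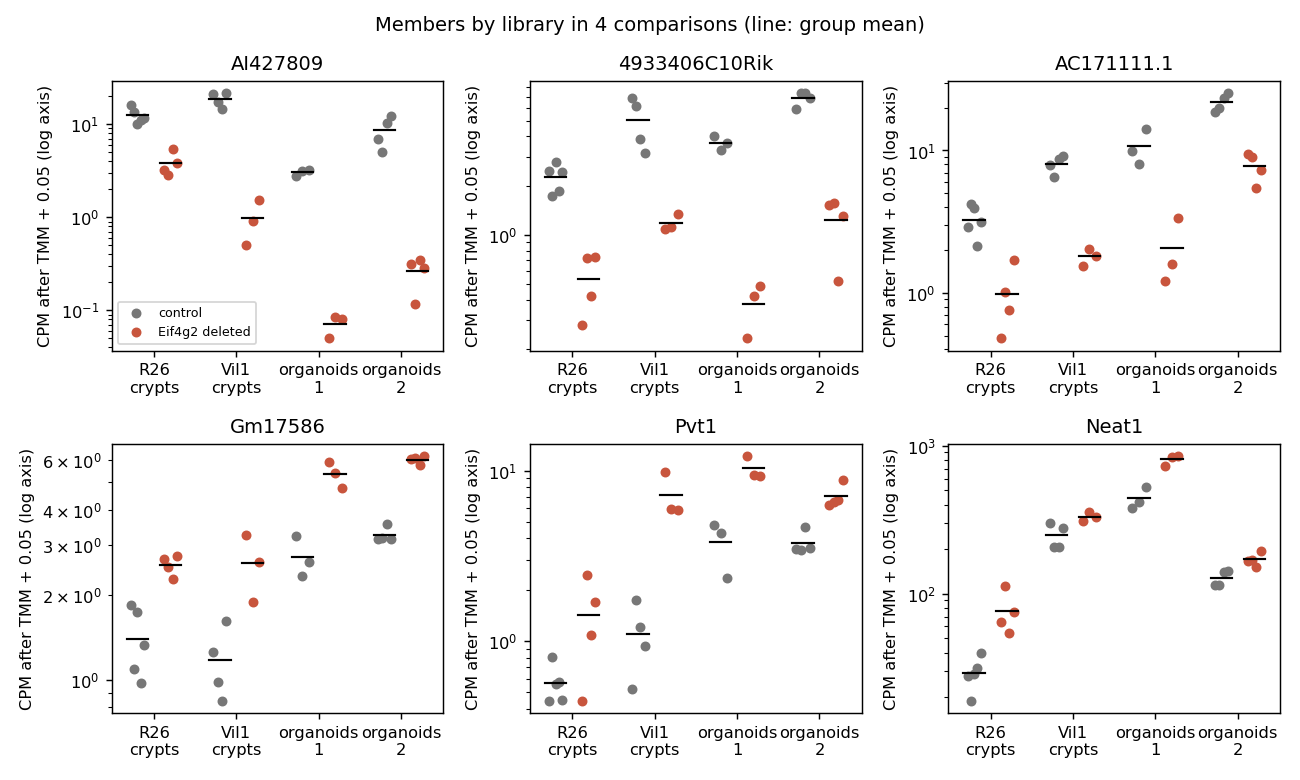
CPM after TMM scaling plus 0.05 (log axis) of 6 lincRNAs in every library of 4 comparisons; grey points are controls (heterozygous, DMSO or flox/+), red points are libraries with Eif4g2 deleted, and the line is the group mean. AI427809, 4933406C10Rik and AC171111.1 were lower without overlap in all 4 comparisons, and Neat1 in Vil1-CreER crypts was the 1 Neat1 comparison of these 4 that did not pass the test.

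Several lincRNAs that fell were higher in crypts than in villi of heterozygous Rosa26-CreER mice, as were 45.5% of all lincRNAs tested there. Of those described next, the crypt-against-villus value is given for AC171111.1 only. 4933406C10Rik (chr12:32919384-32953789, minus strand) starts 102 bases from Sypl, a vesicle membrane protein gene on the other strand. It was at 3.97, 3.27 and 3.59 CPM with DMSO and 0.182, 0.371 and 0.434 CPM with 4-OHT in the first organoid set (-3.44, SE 0.33, adjusted p 0.000585), and at 5.88, 7.29, 7.30 and 6.84 CPM in flox/+ and 1.47, 1.52, 0.475 and 1.25 CPM in flox/flox organoids (-2.54, SE 0.25, adjusted p 1.45e-06). In Rosa26-CreER crypts, 2.41, 1.68, 2.73, 1.80 and 2.36 CPM stood against 0.230, 0.668, 0.375 and 0.682 CPM (-2.11, SE 0.35, adjusted p 0.00406). None of these groups overlapped. Sypl fell less: by 0.88 in Rosa26-CreER crypts (adjusted p 0.000566), 0.78 in Vil1-CreER crypts (adjusted p 0.000202) and 0.77 with 4-OHT in the first set (adjusted p 0.00063).

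In flox/flox spheroids 4933406C10Rik was uneven between lines, at a range from 0.438 to 8.18 CPM with DMSO and from 0 to 0.683 CPM with 4-OHT. The groups overlapped. The change of -4.26 (SE 1.34, adjusted p 0.0296) lost its call without DMSO library 1 or 3 or 4-OHT library 2, 4 or 5, with adjusted p up to 0.0601. DMSO and 4-OHT libraries of the same line were not paired in this fit, nor when overlap was judged.

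AC171111.1 (chr17:14249851-14277755, plus strand) lies 29655 bases from Smoc2, a crypt stem cell gene, on the same strand. In Vil1-CreER crypts it was at 7.86, 6.44, 8.65 and 9.08 CPM in heterozygous and 1.5, 1.98 and 1.77 CPM in homozygous libraries (-2.19, SE 0.20, adjusted p 0.000221). In the first organoid set it went from 9.91, 7.99 and 14.2 CPM to 1.15, 1.55 and 3.29 CPM (-2.41, SE 0.42, adjusted p 0.0046). The groups did not overlap in either comparison. In heterozygous Rosa26-CreER villi it was at 0.038, 0, 0.247, 0 and 0.056 CPM, against 2.83, 4.14, 3.90, 2.08 and 3.09 CPM in crypts (crypts against villi 5.62, adjusted p 3.65e-06). Smoc2 was also higher in crypts, by 5.97, and fell by 1.52 in Rosa26-CreER crypts and 1.55 in the first organoid set. The crypt marker sums given above fell with both, and their part in the result was not tested.

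1810028F09Rik (chr14:51142870-51144117, minus strand), 2668 bases from the ribonuclease gene Rnase1, fell in Rosa26-CreER crypts from 3.39, 3.73, 3.50, 2.36 and 3.05 CPM to 0.296, 0.610, 0.584 and 1.12 CPM (-2.24, SE 0.35, adjusted p 0.00283). Rnase1 fell there by 2.68 (adjusted p 0.00134). Gm36945 (chr1:164705419-164712541, minus strand) fell from 1.67, 2.18, 3.21, 2.33 and 2.13 CPM to 0.099, 0.581, 0.438 and 0.424 CPM (-2.50, SE 0.44, adjusted p 0.00503). Neither pair of groups overlapped. 5930430L01Rik (chr5:148990056-148995223, minus strand), lower in 9 comparisons, was at 2.40, 2.69, 2.86 and 1.79 CPM in heterozygous and 0.537, 0.501 and 0.520 CPM in homozygous Vil1-CreER crypts (-2.22, SE 0.28, adjusted p 0.000965). Its fall with 4-OHT in organoids of the first set (-2.05, SE 0.46, adjusted p 0.0124) had an adjusted p of 0.0508 without DMSO library 1 and 0.0511 without 4-OHT library 1.

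Miat, linked to splicing factors and described in neural tissue, fell in the first organoid set from 1.84, 1.62 and 2.79 CPM to 0.030, 0.034 and 0.031 CPM, with no overlap (-5.86, adjusted p 0.000333). In the second set it fell by 3.64, from 3.17, 2.53, 2.94 and 1.85 CPM in flox/+ to 0, 0.199, 0.475 and 0.119 CPM in flox/flox. In the libraries with Eif4g2 deleted, Miat was thus at 0.475 CPM or less in both organoid sets. A930038B10Rik fell by 2.93 and 2.98 in the same sets.

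In the first organoid set 18.2% of all genes were called higher and 17.2% lower, shares to set beside each list count in this paragraph. There, 2 of 10 nonsense-mediated decay factors rose and 0 fell (median 0.16 against 0.03 over all genes), near the share over all genes. Of the imprinted lncRNAs 1 of 3 tested rose. Of the developmental and lineage lncRNAs 2 of 6 rose, Hotairm1 by 1.04 and Gm14005 by 3.73, and Miat fell, and the single tested lincRNA row of ribosomal RNA-like sequence was not called. Of 6 villus enterocyte markers 5 fell, by 1.11 (Sis) to 2.26 (Fabp1), and of 7 epithelial markers 1 rose and 2 fell. Of 10 stromal markers only Vim was tested, and it fell by 3.24. Of the immune markers only Csf1r was tested, and it rose by 3.735 (adjusted p 0.0128), in libraries whose immune marker sums were at most 6.88 CPM.

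Gm17586 (chr11:120633768-120635125, plus strand) rose in 6 comparisons. It starts 168 bases from Mafg, a small MAF transcription factor, on the other strand. In the second organoid set it was at 3.10, 3.13, 3.51 and 3.10 CPM in flox/+ and 6.01, 6.03, 5.70 and 6.15 CPM in flox/flox, with no overlap (0.90, SE 0.18, adjusted p 0.00104). In the first set it rose from 3.19, 2.29 and 2.57 CPM to 5.83, 5.36 and 4.71 CPM (0.98, SE 0.20, adjusted p 0.00902). In flox/flox spheroids the lowest, median and highest were 1.16, 2.12 and 2.94 CPM with DMSO and 2.56, 4.92 and 6.63 CPM with 4-OHT, an overlapping rise of 1.23 (SE 0.33, adjusted p 0.0129). Libraries of the same line were not paired there. Mafg rose by 0.54 in Rosa26-CreER crypts (adjusted p 0.00488), 0.72 in Vil1-CreER crypts (adjusted p 0.00104) and 0.72 with 4-OHT in the first set (adjusted p 0.000563).

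In crypts the rise of Gm17586 rested on few libraries. In Rosa26-CreER crypts, 1.80, 1.04, 1.69, 0.930 and 1.28 CPM stood against 2.63, 2.47, 2.23 and 2.69 CPM (0.94, SE 0.25, adjusted p 0.0272). Without any one of homozygous libraries 1, 3 and 4 or heterozygous libraries 2, 4 and 5 the adjusted p rose to as much as 0.0678, and with a term for Ddx3y reads it was 0.103. In Vil1-CreER crypts, 1.21, 0.936, 0.792 and 1.57 CPM stood against 3.22, 1.84 and 2.57 CPM (1.16, SE 0.32, adjusted p 0.0269), and the call was lost without heterozygous library 1 or 3 or homozygous library 1 or 3, with adjusted p up to 0.109. The groups did not overlap in either comparison.

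Pvt1 (chr15:62037986-62378096, plus strand), 52595 bases downstream of Myc, rose in Vil1-CreER crypts from 0.475, 1.69, 1.16 and 0.884 CPM to 9.74, 5.91 and 5.86 CPM (2.77, SE 0.40, adjusted p 0.00187), while the log2 fold change of Myc was 0.18 and did not pass the test. In the first organoid set it rose from 4.78, 4.25 and 2.30 CPM to 12.1, 9.33 and 9.28 CPM (1.43, SE 0.28, adjusted p 0.0073). In the second it rose from 3.43, 3.37, 4.64 and 3.46 CPM to 6.21, 6.49, 6.71 and 8.71 CPM (0.92, SE 0.17, adjusted p 0.000533). None of these groups overlapped. In Vil1-CreER villi both Pvt1 (1.46, adjusted p 0.0142) and Myc (1.94, adjusted p 0.0011) rose.

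Pvt1 is known as a p53 target. It was higher in 4 of the 12 genotype and inhibitor comparisons, not called in 7 and not tested in 1. Among those not called were Rosa26-CreER crypts (log2 fold change 1.455, adjusted p 0.0539), flox/flox spheroids with 4-OHT (0.815, adjusted p 0.134) and 10 µM A-485 (-0.389, adjusted p 0.594). Of the mRNAs of 16 p53 targets, 11 rose and 0 fell in Vil1-CreER crypts (median 1.32 against 0.01 over all genes), 12 rose and 0 fell in the first organoid set (0.74 against 0.03), and 14 rose and 1 fell in the second (0.63 against -0.01). In Vil1-CreER villi 11 rose and 1 fell, in Rosa26-CreER crypts 6 and 1, and in Rosa26-CreER villi 4 and 3. In flox/flox spheroids 3 rose and 0 fell with 4-OHT, and between spheroid genotypes 0 rose and 1 fell. Of all genes, 11.6% were higher in Vil1-CreER crypts, 18.2% in the first organoid set, 22.6% in the second and 20.9% in Vil1-CreER villi. The same share was 8.63% in Rosa26-CreER crypts, 15% in Rosa26-CreER villi, 9.01% in flox/flox spheroids and 4.36% between spheroid genotypes. Of 6 p53-linked lncRNAs, 2 of 3 tested rose and 0 fell in each organoid set.

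C130083M11Rik (chr5:52199984-52216434, minus strand) rose in 7 comparisons. In Vil1-CreER crypts it was at 1.26, 1.67, 1.10 and 1.39 CPM in heterozygous and 4.37, 2.93 and 3.05 CPM in homozygous libraries, with no overlap (1.35, SE 0.25, adjusted p 0.00527). It rose by 0.97 (SE 0.26, adjusted p 0.0235) in organoids of the first set, a call lost without 4-OHT library 1 or DMSO library 2 or 3, with adjusted p up to 0.0704.

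Gm42047 and 4930461G14Rik rose in Vil1-CreER villi. Gm42047 (chr8:121833247-121841178) was at 10.1, 29.0, 36.3 and 2.46 CPM in heterozygous villi, and in homozygous ones its lowest, median and highest were 138, 195 and 248 CPM (3.31, SE 0.65, adjusted p 0.003). 4930461G14Rik (chr9:58455122-58469635, plus strand) had no read in the heterozygous villi and 0.743, 2.22 and 13.3 CPM as lowest, median and highest in the homozygous ones, at least 124.77-fold higher against 3 counts over the group (adjusted p 0.00268). In Vil1-CreER crypts it was at 0.214, 0.137, 0 and 0.020 CPM against 8.74, 1.41 and 1.32 CPM (5.29, SE 1.09, adjusted p 0.0112). None of these groups overlapped.

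AW112010 (chr19:11047617-11050566, minus strand), known from inflammatory macrophages, fell in villi: from 72.2, 56.2, 83.1 and 80.7 CPM to a lowest of 11.4, a median of 23.4 and a highest of 30.7 CPM in Vil1-CreER (-1.77, SE 0.25, adjusted p 0.000157), and from 33.7, 36.7, 64.5, 43.2 and 45.0 CPM to 19.16, 19.97, 14.6, 22.4 and 20.8 CPM in Rosa26-CreER villi (-1.26, SE 0.19, adjusted p 0.000663). The groups did not overlap. The summed CPM of 11 immune markers was also lower, from 460.3 to 968.9 in heterozygous and from 102.3 to 348.8 in homozygous Vil1-CreER villi, and 6 of 11 fell and 0 rose. In Rosa26-CreER villi the sums were from 320.9 to 850.6 and from 209.3 to 309.7, with 6 of 11 lower and 0 higher. In both mouse lines the 6 were Ptprc, Cd3e, Cd3g, Cd8a, Gzma and Gzmb, which are leukocyte or lymphocyte genes. Csf1r and Lyz2, which macrophages express, were not called in Vil1-CreER (0.485 and 0.74) or Rosa26-CreER villi (-0.604 and -0.024). Of all genes 21.6% were lower in Vil1-CreER villi and 18.2% in Rosa26-CreER villi. The part of the immune markers in the fall of AW112010 was not tested. In organoids of the second set, where those sums were near 0, AW112010 had between 2.15 and 6.36 CPM.

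More lincRNAs were called lower at the higher A-485 doses, as were more genes overall. At 3 µM 7 rose and 2 fell of 113 tested (7.96%; 19.2% of all genes, 10.8% higher and 8.42% lower), at 5 µM 9 rose and 22 fell (27.4%; 49.6% of all genes, 24.4% higher and 25.1% lower), and at 10 µM 11 rose and 40 fell (45.1%; 62% of all genes). The lower calls at 10 µM were 35.4% of the lincRNAs and 32.6% of all genes, and the higher calls 9.73% and 29.4%. The median log2 fold change went from -0.06 at 3 µM to -0.36 at 5 µM and -0.61 at 10 µM, against 0.00, -0.02 and -0.05 over all genes. Of all genes outside X and Y at 2 CPM or more in wild-type organoids, the threshold that chose the lincRNAs, 30.2% were higher and 35.8% lower at 10 µM, with a median of -0.09. The 3 doses share the DMSO libraries. At 3 µM the count was 14 (12.4%; 7 higher, 7 lower) with the line as a replicate block, where 26.3% of all genes were called, 13.7% higher and 12.5% lower. The count was 5 without DMSO library 2 or DMSO library 4.

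**Figure D3:**
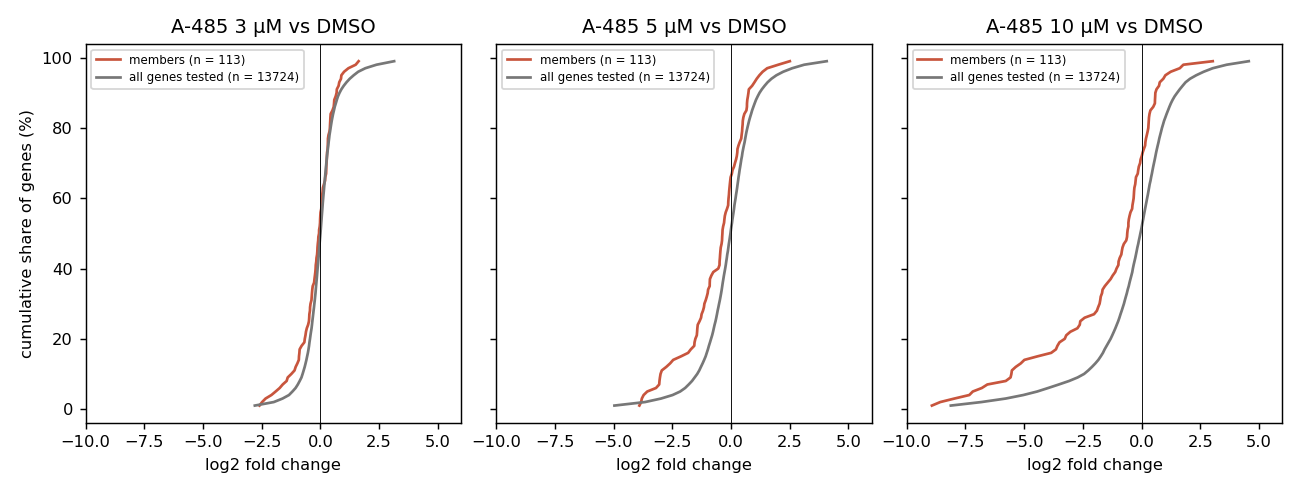
Cumulative share (%) of the lincRNAs (red, n = 113) and of all genes tested (grey, n = 13724) by log2 fold change against DMSO, at 3, 5 and 10 µM A-485. At 10 µM the lowest 25% of the lincRNAs lay below -2.61 and those of all genes below -0.99, and the top 25% lay above 0.15 and 0.69; the lincRNAs, unlike all genes, were chosen by a level of 2 CPM or more in wild-type organoids.

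At 10 µM some lincRNAs had no read left. 1810028F09Rik went from 3.47, 6.31, 3.31 and 6.5 CPM to no read in all 4 libraries, at least 86.56-fold lower against 3 counts over the group (adjusted p 5.62e-06), and Gm36945 from 7.86, 9.19, 8.16 and 12.3 CPM to no read, at least 165.81-fold lower (adjusted p 9.85e-05). Rnase1 fell there by 8.43 (adjusted p 1.89e-09). 2210039B01Rik (at least 71.26-fold), 3930402G23Rik (52.84), 6430710C18Rik (30.59), Gm36426 (25.38) and Gm12860 (17.38) also had no read at 10 µM.

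AI427809 fell at every dose. It was at 8.32, 11.6, 8.64 and 9.36 CPM with DMSO and at 1.98, 2.15, 2.47 and 0 CPM at 3 µM (-2.50, SE 0.72, adjusted p 0.0199). At 5 µM it was at 1.09, 0.085, 0.655 and 1.06 CPM (-3.69, SE 0.77, adjusted p 0.00063), and at 10 µM at 0, 0.067, 0.133 and 0 CPM (-7.18, SE 1.01, adjusted p 6.19e-06). No treated library reached a DMSO library. The call at 3 µM was lost without DMSO library 2 (adjusted p 0.0588) or 4 (adjusted p 0.0501). Abca1 fell by 1.53 at 10 µM (adjusted p 0.00271).

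AC171111.1 was at 12.4, 9.11, 15.7 and 14.8 CPM with DMSO and at 6.17, 9.58, 12.2 and 6.25 CPM at 3 µM, a log2 fold change of -0.60 that did not pass the test. At 5 µM it was at 0.727, 3.05, 1.97 and 1.45 CPM (-2.86, adjusted p 0.000115), and at 10 µM at 0, 0.067, 0.398 and 0 CPM (-6.55, SE 0.66, adjusted p 1.11e-07). Smoc2 fell by 3.81 at 10 µM (adjusted p 8.8e-13). Snhg18 was at 12.4, 11.4, 8.24 and 13.3 CPM with DMSO, at 1.90, 6.94, 7.50 and 7.78 CPM at 3 µM, which did not pass the test, at 1.82, 1.10, 1.31 and 1.06 CPM at 5 µM (-3.08, adjusted p 6.27e-06) and at 0.717, 0.604, 0.464 and 0.443 CPM at 10 µM (-4.31, SE 0.44, adjusted p 1.37e-07). Sema5a fell by 6.42 at 10 µM (adjusted p 6.77e-10). 4933406C10Rik went from 2.39, 3.60, 5.41 and 7.35 CPM to 0, 0, 0.331 and 0 CPM at 10 µM (-5.54, SE 1.32, adjusted p 0.00137), and Sypl fell by 1.01 (adjusted p 4.26e-08).

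**Figure D4:**
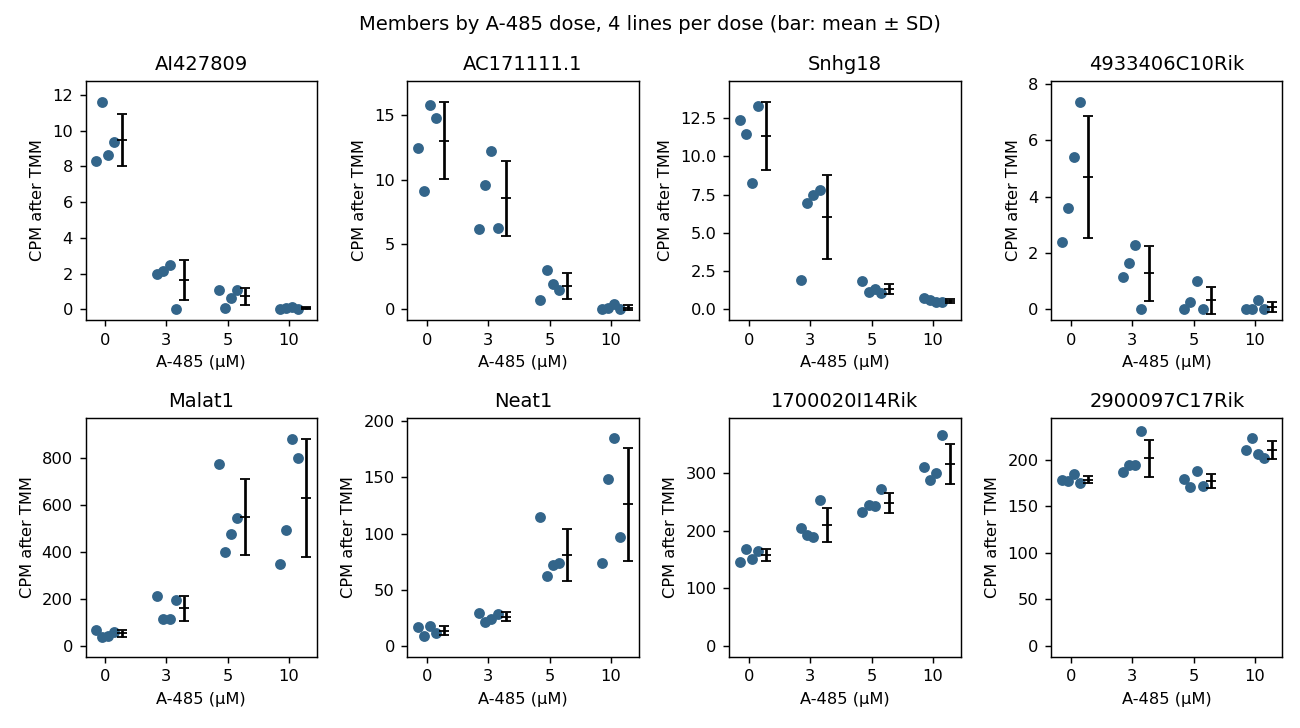
CPM after TMM scaling (linear axes) of 8 lincRNAs by A-485 dose (µM, 0 is DMSO), one point per line and the mean ± SD at the right of each dose. AI427809, AC171111.1, Snhg18 and 4933406C10Rik fell toward 0 at 10 µM, and 2900097C17Rik stayed between 171 and 231 CPM. Malat1, Neat1 and 1700020I14Rik had a higher group mean at each higher dose.

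Against that direction, Malat1 and Neat1 were higher than with DMSO at every dose. Malat1 was at 69.1, 38.8, 44.3 and 61.5 CPM with DMSO and at 212, 117, 115 and 197 CPM at 3 µM (1.58, SE 0.31, adjusted p 0.00206). It reached 777, 401, 479 and 548 CPM at 5 µM (3.37, SE 0.33, adjusted p 5.54e-07) and 349, 496, 885 and 800 CPM at 10 µM (3.56, SE 0.33, adjusted p 1.22e-07). Every treated library lay above every DMSO library. Neat1 was at 16.6, 8.95, 18.0 and 11.3 CPM with DMSO, 29.6, 21.4, 23.8 and 28.8 CPM at 3 µM, 114, 62.4, 72.1 and 73.4 CPM at 5 µM and 73.6, 149, 185 and 97.2 CPM at 10 µM. Its changes were 0.92 (SE 0.28, adjusted p 0.0307), 2.56 (SE 0.29, adjusted p 1.64e-06) and 3.20 (SE 0.30, adjusted p 5.91e-08). The call at 3 µM was lost without DMSO library 2 or 4 or without 3 µM library 1 or 4, with adjusted p up to 0.103. In line 1 both RNAs were lower at 10 µM than at 5 µM (Malat1 349 against 777 CPM, Neat1 73.6 against 114 CPM), unlike in the other lines. Differences between doses were not tested.

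1700020I14Rik (chr2:119594297-119607502, plus strand) rose in steps, from 146, 169, 150 and 165 CPM with DMSO to 205, 192, 189 and 253 CPM at 3 µM, 232, 244, 243 and 273 CPM at 5 µM and 311, 288, 301 and 367 CPM at 10 µM (1.00, SE 0.11, adjusted p 2.98e-07). 2900097C17Rik was at 178, 177, 184 and 175 CPM with DMSO and 211, 224, 207 and 202 CPM at 10 µM (0.24, SE 0.08, adjusted p 0.0216), a call lost without DMSO library 1 or 4 or 10 µM library 2, with adjusted p up to 0.0665. 1700001L05Rik fell from 53.5, 50.7, 56.8 and 60.5 CPM to 18.5, 14.6, 10.3 and 23.5 CPM (-1.73, SE 0.26, adjusted p 1.13e-05). Gm26917 (chr17:39843013-39846341, plus strand), a row of ribosomal RNA-like sequence, fell from 271, 146, 150 and 186 CPM to 70.0, 62.7, 72.7 and 45.9 CPM (-1.58, SE 0.40, adjusted p 0.00299).

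C130083M11Rik rose at all 3 doses, from 0.616, 1.68, 1.29 and 0.464 CPM to 4.11, 1.73, 3.41 and 3.38 CPM at 3 µM (1.63, SE 0.49, adjusted p 0.0251) and 4.01, 3.09, 3.05 and 3.44 CPM at 10 µM (1.74, SE 0.49, adjusted p 0.00479). The groups did not overlap at either dose. The 3 µM call was lost without DMSO library 1 or 4 or 3 µM library 1, with adjusted p up to 0.0821.

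SnoRNA hosts went down rather than up with A-485: at 10 µM 1 of 18 tested rose and 11 fell (median -1.44 against -0.05 over all genes), and 8 of 8 core proteins of snoRNA particles fell (median -1.54). Snhg6, at -0.16, did not pass the test. Epb41l4aos went from 17.1, 10.9, 10.4 and 13.2 CPM to 4.01, 3.96, 1.86 and 3.88 CPM (-1.92, SE 0.71, adjusted p 0.0272), with adjusted p of 0.061 without DMSO library 1 and 0.0766 without 10 µM library 3. Mir17hg went from 5.16, 2.40, 4.44 and 3.25 CPM to 0, 0.201, 0.398 and 2.33 CPM (-2.48, SE 0.86, adjusted p 0.0184), with adjusted p of 0.0564 without 10 µM library 2 and 0.0531 without library 3. The 9 paraspeckle protein genes fell in 9 of 9 cases at 5 and 10 µM (median -0.68 at 10 µM) while Neat1 rose, and 13 of 16 p53 target mRNAs rose and 0 fell at 10 µM (median 1.44). Of all genes 25.1% were lower at 5 µM, and 29.4% were higher and 32.6% lower at 10 µM. These are shares to set beside each list count in this paragraph.

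Between crypts and villi of heterozygous Rosa26-CreER mice, 51 lincRNAs were higher and 23 lower in crypts of 112 tested (66.1%; 77.1% of all genes, 40.6% higher and 36.4% lower). The median was 0.50 over the lincRNAs and 0.09 over all genes. Lockd, downstream of the cell-cycle inhibitor gene Cdkn1b (chr6:134929092-134956798, plus strand), was at 2.99, 2.81, 3.05, 3.78 and 3.83 CPM in crypts and 0.307, 0.089, 0.308, 0.376 and 0.278 CPM in villi (3.58, adjusted p 5.54e-07). Lower in crypts was 4933404O12Rik, at 2.62, 1.33, 1.23, 1.89 and 1.83 CPM against 26.6, 39.4, 33.8, 38.2 and 56.3 CPM (-4.45, adjusted p 1.52e-08). Neither pair of groups overlapped. Gm36426 had no read in villi and was at least 22.08-fold higher in crypts.

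Against flox/+ organoids of the second set, flox/+ spheroids with 4-OHT had 12 lincRNAs higher and 45 lower of 116 (49.1%; 47.9% of all genes, 25.1% higher and 22.8% lower). The set was chosen by its level in organoids, so this direction is no evidence. C130083M11Rik stood out on the higher side, at 13.8, 11.98, 12.2, 11.2 and 7.05 CPM in spheroids against 0.990, 1.57, 1.75 and 1.21 CPM in organoids, levels scaled separately for each set (3.14, SE 0.27, adjusted p 5.31e-05). Pvt1 was higher by 1.71, and the log2 fold changes of Neat1, Miat and AI427809 were -1.93 (adjusted p 2.22e-05), -4.49 and -8.38.

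Many lincRNAs fell in several comparisons that share no library, as did many genes overall. Of 16 lower in Rosa26-CreER crypts, 14 were also lower in Vil1-CreER crypts (87.5% of the first list and 46.7% of the second, of 30), where the shares over all genes lower in each were 69.5% and 42.5%. In the first organoid set 13 of the 16 were lower (81.2% and 52%; all genes 52.5% and 36.5%), in the second 15 (93.8% and 46.9%; all genes 68.6% and 36.4%) and at 10 µM A-485 14 (87.5% and 35%; all genes 57.1% and 23.3%). The first and second organoid sets shared 20 falls (80% and 62.5%; all genes 64.5% and 49.3%), and the second set and 10 µM A-485 shared 23 (71.9% and 57.5%; all genes 56.4% and 43.4%). Whether these shares differ between lincRNAs and all genes was not tested. Of the rises, 2 were shared between 8 in Rosa26-CreER crypts and 12 in Vil1-CreER crypts (25% and 16.7%; all genes 50.1% and 34.9%), Gm17586 and Snhg20, and 6 between 16 and 12 in the organoid sets (37.5% and 50%; all genes 66% and 57.3%). Of the 30 lower in Vil1-CreER crypts, 17 were among the 51 higher in crypts than villi (56.7% and 33.3%; all genes 37.3% and 18.6%), while 45.5% of all lincRNAs tested were higher in crypts. Only AI427809 and 5930430L01Rik were lower in as many as 9 of the 12 comparisons, some of which share libraries, and Gm36945 was lower in 8.

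Log2 fold changes of divergent lincRNAs and of their neighbours were compared side by side. Across the 15 divergent pairs, Pearson's r between the log2 fold changes of lincRNA and coding gene was 0.67 in Rosa26-CreER crypts, 0.78 in Vil1-CreER crypts, 0.74 in the first organoid set, 0.75 in the second and 0.63 at 10 µM A-485. Across the other pairs r was 0.17 (75 pairs), 0.40 (77), 0.23 (76), 0.53 (76) and 0.22 (74). Divergent pairs had the lower r in Vil1-CreER villi (0.08 against 0.40), between crypts and villi (0.42 against 0.46) and at 3 µM A-485 (0.14 against 0.23). These are descriptions across genes of the same libraries, which are not independent replicates. Of the divergent lincRNAs called, the neighbour was called in the same direction for 5 of 5 in the first organoid set, 5 of 6 in Vil1-CreER crypts, 3 of 4 in Rosa26-CreER crypts, 3 of 4 in the second organoid set and 2 of 3 at 10 µM A-485, against 5 of 28, 14 of 29, 3 of 14, 8 of 28 and 16 of 36 of the other lincRNAs called. The divergent counts were 0 of 3 in Vil1-CreER villi (9 of 25 of the others), 2 of 3 in Rosa26-CreER villi (4 of 11), 6 of 9 between crypts and villi (28 of 51), 2 of 9 in spheroids against organoids (8 of 36) and 1 of 3 in each of the flox/flox spheroid comparisons (0 of 4 with 4-OHT and 1 of 3 between genotypes).

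**Figure D5:**
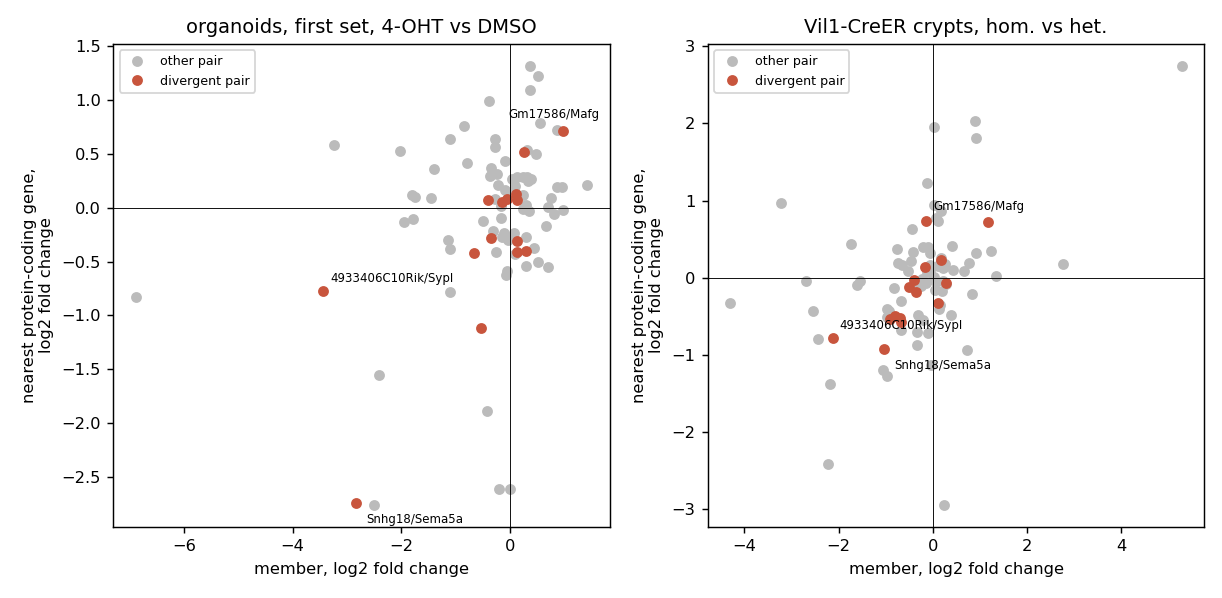
Log2 fold change of each lincRNA (x axis) and of its nearest protein-coding gene (y axis) in the first organoid set (left) and Vil1-CreER crypts (right); red points are the 15 divergent pairs and grey points the others. Pearson's r over the red points was 0.74 and 0.78, with Snhg18 and Sema5a and 4933406C10Rik and Sypl low and Gm17586 and Mafg high.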

How the data were processed

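Polyadenylated RNA was sequenced from 92 mouse libraries, made with a directional dUTP kit. Per the labels, the 4 tables that the authors deposited hold raw counts for each gene, all whole numbers; HISAT2 2.0.5 and the build GRCm38 (mm10) are named in the submitters' processing notes, while the counting program and its use of strand are not given in the sources used here. Of 54532 gene rows, 54495 are in GENCODE vM21, 53585 of all rows (98.33%) with the same start and end. All mapped columns were used and the library totals ran from 8652040 to 37611126 counts, which limits what can be seen of lincRNAs near 1 CPM.

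Each comparison was fitted over all genes in edgeR 4.0.16 under R 4.3.3 (filterByExpr by group, TMM, robust quasi-likelihood F-test, Benjamini-Hochberg adjustment, called at an adjusted p under 0.05). Tissue, the first organoid set and spheroids against organoids were fitted on their 2 groups, and the other sets with all their groups. SE was derived from the F statistic. Sequences and gene types came from RefSeq (GRCm38.p6). The members and the gene lists were chosen with earlier results of these data known; listed names that are no row name were matched through RefSeq synonyms. Named lincRNAs are the 6 largest rises and 6 largest falls per comparison among those called whose mean log2 CPM was 1 or more, the members of the lncRNA lists, the 10 highest per length, those called most often (up to 8 each way), the 3 on either side of the threshold, and the nearest coding neighbours. The text gives a selection of these, made after their values were seen.

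Alternatives were DESeq2 1.42.0 size factors and its Wald test, testing every gene with at least 1 read, blocking on the replicate, only the 2 groups compared, each library left out in turn, and a term for Ddx3y reads, which was chosen after seeing the data. Library names in the labels pair the same lines in the A-485 series, the first organoid set and DMSO with 4-OHT spheroids of one genotype (residual correlations of the pairs 0.045 to 0.267, 0.318 to 0.501 and 0.323 to 0.839), and the crypts and villi of one animal in Rosa26-CreER mice (-0.00247 to 0.164). Where nothing says that libraries came from separate cultures or animals, p-values measure only the spread between these samples. The fits were tested on simulated counts.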

Additional observations from a re-analysis of the deposited data

Results flagged for a closer look

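In 96 groups of 4 to 10 libraries, 4 had a value far from the others by Dixon's test, a test that marks about 1 in 20 groups by chance. At 10 µM A-485, line 3 had 0.331 CPM of 4933406C10Rik and 0.398 CPM of AC171111.1, where the other 3 lines had between 0 and 0.067 CPM of each. The share of all counts taken by the 116 lincRNAs was 0.176% in flox/+ organoid library 1 of the second set and 0.383% in flox/flox DMSO spheroid library 6. In that spheroid library Neat1 was at 786 CPM and Gm42047 at 727 CPM, and in the 4-OHT library of the same line at 801 and 905 CPM.

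For 2 lincRNAs every library moved one way in one comparison and the other way in a second. The log2 fold change of 4930516B21Rik in Vil1-CreER crypts minus that in Vil1-CreER villi was -1.91: the crypts went from 2.66, 3.63, 2.56 and 2.65 CPM to 1.23, 1.93 and 1.39 CPM (adjusted p 0.0297), and the villi from 1.01, 1.46, 1.63 and 0.968 CPM to between 1.71 and 3.35 CPM (adjusted p 0.0143). The crypt call was lost without heterozygous library 1 or 2 or homozygous library 1 or 3, with adjusted p up to 0.101. RefSeq gives 4930516B21Rik as a synonym of Acvr2b, which it types as protein-coding. For 4933404O12Rik the log2 fold change in the second organoid set minus that in the first was 1.51: it went from 17.6, 21.2 and 25.3 CPM to 9.99, 13.5 and 13.7 CPM in the first (adjusted p 0.0141) and from 3.56, 4.46, 4.01 and 4.42 CPM to 5.21, 6.96, 7.96 and 7.22 CPM in the second (adjusted p 0.00158). Neither difference between effects was tested.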

How the results depend on the processing

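No call reversed under any alternative run. Of 451 calls of a lincRNA in a comparison, 444 held with DESeq2 size factors, 450 with the DESeq2 Wald test and 383 when every gene with a read was tested, and 3312 of 3893 held over the fits that left out 1 library. With a replicate block, where every number occurs in each group, 262 of 279 held, and the block moved no count other than those given here by over 1.5 times. Rosa26-CreER crypts had 24 lincRNAs called, 14 with a replicate block on shared numbers, which the labels do not pair, and 14 with the term for Ddx3y reads. Flox/flox spheroids had 9, against 4 with no filter, 17 with the Wald test and 23 with the replicate block. Flox/flox against flox/+ spheroids had 9, against 3 with no filter, 16 with the Wald test, 0 with a replicate block on shared numbers and 2 with only the 2 groups compared. A-485 at 3 µM had 9 and 14 with the replicate block. The threshold gave 186 lincRNAs at 1 CPM and 62 at 4 CPM. With 1 library left out, counts ran from 25 to 42 in Vil1-CreER crypts, 25 to 44 in the first organoid set, 6 to 18 in flox/flox spheroids, 2 to 10 between spheroid genotypes and 5 to 10 at 3 µM A-485. The cause of these shifts was not tested. The median coefficient of variation of lincRNAs at 2 CPM or more was 31.0% to 49.0% in the spheroid groups, 23.5% to 34.5% in the A-485 groups and 11.3% to 15.9% in the other organoid groups compared, and lincRNAs near 2 CPM rest on few reads in the shallower A-485 libraries.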
